A study of Mus musculus with 20 samples.

Results

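The lining of the third ventricle was followed here through 10 marker genes, 5 of tanycytes and 5 of ependymal cells, in the hypothalamus of obese mice given celastrol or its solvent. The tanycyte genes were Rax, Lhx2, Vim, Nes and Gpr50, and the ependymal genes were Foxj1, Ccdc153, Rarres2, Tmem212 and Cd24a. They were taken by symbol from a list and not by their response, as the brightest probe set that the platform annotation gives that symbol alone. Each of the 10 had exactly 1 such probe set. They are 10 of 18704 genes with a single-symbol probe set, and all 10 were among the 14129 genes bright enough to be tested.

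Tanycytes are elongated glial cells in the floor and lower walls of the third ventricle. They send long processes into the hypothalamic parenchyma and to the median eminence, where they take part in the exchange of hormones and metabolites between blood, cerebrospinal fluid and neurons. The upper walls are lined by ependymal cells, whose motile cilia move the cerebrospinal fluid. Both kinds make up a small share of the tissue, and in RNA from whole hypothalamus a lower value from fewer such cells and one from less RNA per cell cannot be told apart.

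All arrays came from male C57BL/6J mice that ate a 45% fat diet for 16 weeks from an age of 4 weeks. DMSO, the vehicle, was injected into the peritoneum at 25 µl per day in the control groups, with 3 arrays for each of 6 h, 1 day and 4 days. Celastrol, a plant triterpenoid that lowers food intake in obese mice, was injected in 25 µl of DMSO per day, on 4 arrays for 6 h, 4 for 1 day and 3 for 4 days. The labels give its dose as 250 µg/kg beside the 6 h time only, number the arrays as biological replicates and do not say how many animals an array holds. There was no lean group and no group without DMSO, so each comparison is between injected obese mice.

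The unit is the log2 intensity of a probe set, on which a difference of 1 is a doubling. Array medians lay between 8.60 and 8.65. DMSO replicate 3 at 6 h and DMSO replicate 3 at 1 day stood apart, as the first principal component of the residuals scored them 11.4 and 9.61 and the other 18 arrays -6.13 to 5.32. Of 14 hypothalamus marker genes, 13 had a single-symbol probe set, and all 13 were tested. A list of 10 thalamus genes had a mean of 9.88 to 10.28 on the DMSO arrays at 6 h and of 9.73 to 9.89 on the other 17, and its part in the results at 6 h was not tested.

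No marker gene passed the test for celastrol at any time. Differences were tested with limma across all 14129 genes, with p-values adjusted by Benjamini-Hochberg and a threshold of 0.05. In 13 comparisons, which are celastrol against DMSO at 3 times and on average, the differences between those effects, and the times against each other within a treatment, limma called 0 of the 10 marker genes in any. Of the 130 differences, 7 had an unadjusted p under 0.05, where 10.1% of the differences of all genes did. The values below therefore describe levels and bounds.

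**Figure D1:**
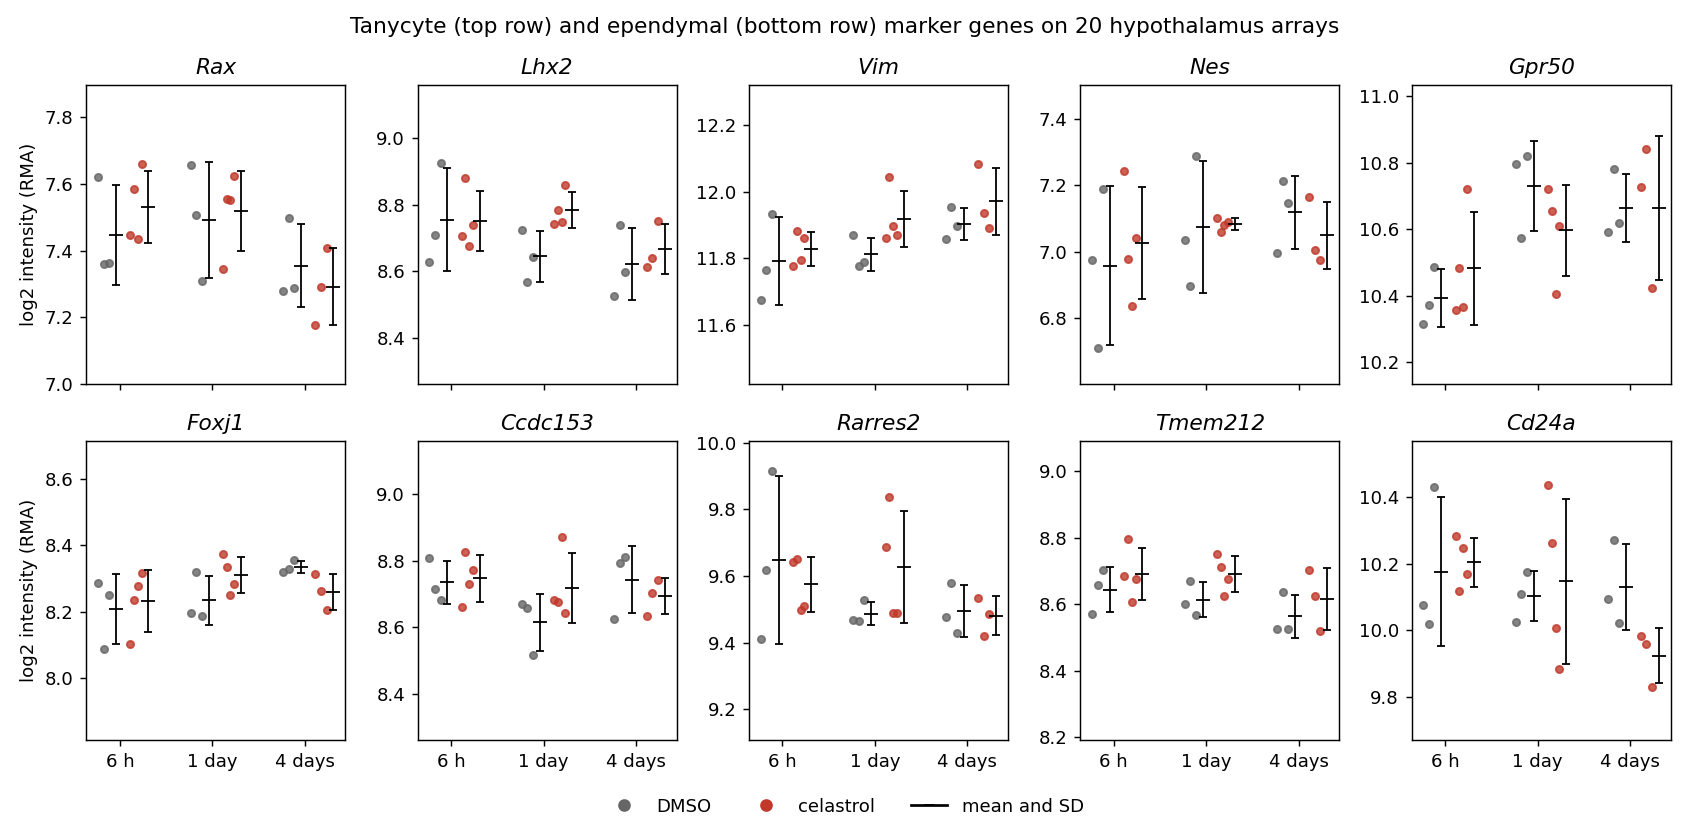
Each panel shows 1 marker gene, with the log2 intensity on the y axis over a span of 0.9 and the 3 times on the x axis. Grey points are DMSO arrays, red points are celastrol arrays, and black bars are the group mean with its SD. Celastrol and DMSO arrays intermix in nearly all panels, and the exceptions are Lhx2 at 1 day and Foxj1 and Cd24a at 4 days.

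Of the tanycyte genes, Rax and Lhx2 encode homeodomain transcription factors that are needed to form and keep tanycytes. Rax had group means of 7.45 ± 0.150, 7.49 ± 0.175 and 7.35 ± 0.125 in DMSO at 6 h, 1 day and 4 days (SD, n = 3 each). In celastrol they were 7.53 ± 0.109 (SD, n = 4), 7.52 ± 0.120 (SD, n = 4) and 7.29 ± 0.116 (SD, n = 3). Both treatments had their lowest Rax mean at 4 days, and at no time did the treatments separate. The highest of all 20 arrays, 7.66, was 1.40-fold above the lowest, 7.18.

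Lhx2 was the marker gene whose celastrol difference had the smallest p. On the DMSO arrays at 1 day it read 8.72, 8.57 and 8.64. On the celastrol arrays at 1 day it read 8.74, 8.78, 8.75 and 8.86. The arrays did not overlap, although the gap between the highest DMSO and the lowest celastrol array was small. The difference was 0.14 ± 0.0692 (limma, SE), with an adjusted p of 0.621 and an interval from -0.01 to 0.28. At 6 h the means were 8.75 ± 0.154 in DMSO (SD, n = 3) and 8.75 ± 0.0895 in celastrol (SD, n = 4). The difference was 0.08 at 6 h and 0.14 at 1 day without the 2 arrays that stood apart.

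Vim and Nes encode the intermediate filament proteins vimentin and nestin, which fill the tanycyte process. Vim also marks astrocytes, vessels and other cells, so it is not specific to tanycytes. Vim means were 11.79 ± 0.132, 11.81 ± 0.0497 and 11.90 ± 0.0487 in DMSO at 6 h, 1 day and 4 days (SD, n = 3 each). In celastrol they were 11.83 ± 0.0509 (SD, n = 4), 11.92 ± 0.0846 (SD, n = 4) and 11.97 ± 0.100 (SD, n = 3). The celastrol mean was the higher at each time, and the groups overlapped at each time. At 4 days the difference was 0.07, and it was 0.01 without celastrol replicate 1. Averaged over the times, the difference was 0.07 with an interval from -0.01 to 0.15, and it did not pass.

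Nes lay only 0.0148 above the intensity below which genes were left out, the closest of the 10 to it. Its means ran from 6.96 ± 0.239 in DMSO at 6 h (SD, n = 3) to 7.12 ± 0.110 in DMSO at 4 days (SD, n = 3). The celastrol arrays at 1 day were closely grouped, from 7.06 to 7.10, inside the DMSO arrays of that time, which read 7.04, 6.90 and 7.29.

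Gpr50, an orphan receptor of the melatonin receptor family found in tanycytes, showed the largest difference of any marker gene, and it was between times in the vehicle group. DMSO arrays read 10.32, 10.37 and 10.49 at 6 h. At 1 day they read 10.80, 10.57 and 10.82, and at 4 days 10.59, 10.78 and 10.62. All later vehicle arrays thus lay above all vehicle arrays at 6 h. In celastrol the arrays read 10.36, 10.48, 10.37 and 10.72 at 6 h, then 10.72, 10.66, 10.40 and 10.61 at 1 day, and 10.73, 10.84 and 10.42 at 4 days. These overlapped at all 3 times.

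Of the ependymal genes, Foxj1 encodes the transcription factor that directs the formation of motile cilia, and Ccdc153 and Tmem212 are genes of ciliated cells. Foxj1 read 8.32, 8.33 and 8.36 on the DMSO arrays at 4 days and 8.31, 8.26 and 8.20 on the celastrol arrays. These did not overlap, by a narrow margin. At 1 day the means had the other order, 8.23 ± 0.0746 in DMSO (SD, n = 3) and 8.31 ± 0.0555 in celastrol (SD, n = 4), with overlap.

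Ccdc153 ranged over all arrays from 8.52 to 8.87 and Tmem212 from 8.52 to 8.80, a span of 1.28-fold and 1.21-fold. The widest gap between group means was 8.61 ± 0.0850 (DMSO at 1 day, SD, n = 3) against 8.75 ± 0.0705 (celastrol at 6 h, SD, n = 4) for Ccdc153. For Tmem212 it was 8.56 ± 0.0638 (DMSO at 4 days, SD, n = 3) against 8.69 ± 0.0537 (celastrol at 1 day, SD, n = 4). Tmem212 was the steadiest of the 10, with an SD within groups of 0.0694.

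Promoter sequences, from 250 bases before to 50 after the start site, were held in the RefSeq table (build GRCm38.p6) for 6 of the 10 genes, namely Lhx2, Vim, Nes, Gpr50, Ccdc153 and Tmem212. The promoters of the cilium genes Ccdc153 (chr9:44240427-44240726, plus strand) and Tmem212 (chr3:27896319-27896618, minus strand) are shown because RFX factors act with Foxj1 at many cilium genes. They run 5′ to 3′, and capitals mark the RFX half-site letters GTTGCC.
Ccdc153: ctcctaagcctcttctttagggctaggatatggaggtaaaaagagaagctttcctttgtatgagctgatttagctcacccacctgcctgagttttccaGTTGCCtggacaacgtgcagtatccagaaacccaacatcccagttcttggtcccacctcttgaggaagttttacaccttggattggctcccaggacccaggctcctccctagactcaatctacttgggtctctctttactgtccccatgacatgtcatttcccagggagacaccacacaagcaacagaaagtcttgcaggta
Tmem212: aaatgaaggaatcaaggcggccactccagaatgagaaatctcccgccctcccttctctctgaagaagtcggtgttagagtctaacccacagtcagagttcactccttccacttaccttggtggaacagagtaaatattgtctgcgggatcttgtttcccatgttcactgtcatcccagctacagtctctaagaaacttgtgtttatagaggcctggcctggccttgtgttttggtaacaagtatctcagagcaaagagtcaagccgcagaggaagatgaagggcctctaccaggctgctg

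The letters GTTGCC were found at base 99 of the Ccdc153 window, position -152 from its start site, and on neither strand of the Tmem212 window. Of all promoters in the table, 12.5% held them on either strand. Of 30 other ciliated ependymal genes with an entry, 18 (60%) held them, beside 14.1% of all genes and 1 of the 6 marker genes. Also searched on both strands were GTAAACA (forkhead), TAATTA (homeodomain), ACACCTGT (T-box), CACGTG (E-box) and TGACGTCA (CRE), and none was found in the windows of the 6 marker genes. Of all genes, 4.05%, 6.12%, 1.14%, 8.09% and 2.03% held them in this order. With shares this low, 6 genes are too few for the absence to describe the marker genes. A match is a string of letters in this window and was not tied to binding.

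Rarres2 encodes the secreted chemoattractant chemerin, and Cd24a a surface glycoprotein that is also found on immature neurons and blood cells. Rarres2 read 9.41, 9.62 and 9.91 on the DMSO arrays at 6 h, the highest of these being replicate 3, which stood apart. In celastrol at 1 day it read 9.69, 9.84, 9.49 and 9.49. The other 4 groups had means from 9.48 to 9.58, and no pair of the groups compared was free of overlap.

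In the array that read 9.84, celastrol replicate 2 at 1 day, the 8 tested genes of the meningeal fibroblast list also had their highest mean. It was 9.56 there and 8.58 to 8.94 on all other arrays. The choroid plexus list, with 9 tested genes, had a mean of 7.98 on that array and 7.66 to 7.84 on the others. Vim was 12.04 there, the highest of the 1 day arrays. The part of these cells in the Rarres2 and Vim values was not tested.

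Cd24a had the widest span of the 10, 1.52-fold, from 9.83 to 10.44. On the DMSO arrays at 4 days it read 10.09, 10.27 and 10.02, and on the celastrol arrays 9.98, 9.96 and 9.83. All celastrol arrays of that time were the lower. At 6 h it read 10.08, 10.02 and 10.43 in DMSO and 10.28, 10.12, 10.25 and 10.17 in celastrol, with overlap. The celastrol arrays at 1 day were spread from 9.88 to 10.44.

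At 6 h, 8 of the 10 marker genes were higher with celastrol and 2 lower, with a median difference of 0.03 beside -0.01 over all genes. None passed, where limma called 0% of all genes. In none did the arrays of the 2 groups separate, where 6.35% of all genes did. The differences ran from -0.07 (Rarres2) to 0.09 (Gpr50). Without the 2 arrays that stood apart, 9 of 10 were higher, the differences ran from -0.01 to 0.18, the median was 0.08 and none passed.

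At 1 day, 9 were higher and only Gpr50 was lower, at -0.13 ± 0.102 (limma, SE; adjusted p = 0.775). With 1 array left out the Gpr50 difference ran from -0.21 (without DMSO replicate 2) to -0.07 (without celastrol replicate 3). The median difference was 0.08 beside 0.01 over all genes. None passed, where 0.425% of all genes did. Lhx2 alone had separate groups, 1 of 10 where 7.81% of all genes had them. The differences at this time share the 3 DMSO arrays of the day, so the genes are no independent counts of direction. Without the 2 arrays that stood apart, 8 were higher and 2 lower, and the median was 0.07. To pass at this time, a difference would have had to reach 0.25 for Tmem212, the steadiest gene, and 0.50 for Cd24a, the most variable.

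At 4 days, 4 were higher and 6 lower, with a median of -0.03 beside 0.01 over all genes. None passed, where 0.0637% of all genes did. The groups were separate for Foxj1 and Cd24a, 2 of 10 where 14.4% of all genes had separate groups. Cd24a had the largest of the celastrol differences, -0.21 ± 0.117 (limma, SE), with an adjusted p of 0.821. Foxj1 differed by -0.07 ± 0.0605 (limma, SE; adjusted p = 0.911). At this time the 5 tested pituitary genes and the 8 meningeal fibroblast genes were all lower with celastrol, with medians of -0.15 and -0.10 and none past the threshold. Their part in the marker values was not tested.

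The bounds on a response were taken for each difference on its own, without adjustment for the number of differences. Of the 30 differences at the 3 times, 0 had an unadjusted p under 0.05, and the smallest was 0.0602 for Lhx2 at 1 day. Their 95% intervals lay between -0.45 and 0.34, and the widest reached 1.37-fold. Averaged over the times, 8 were higher and 2 lower, from -0.05 (Cd24a) to 0.07 (Vim). None passed, where 0.573% of all genes did. For this average the widest interval reached 1.13-fold. These intervals hold for the whole tissue, and a change limited to some of the lining cells could be larger there.

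**Figure D2:**
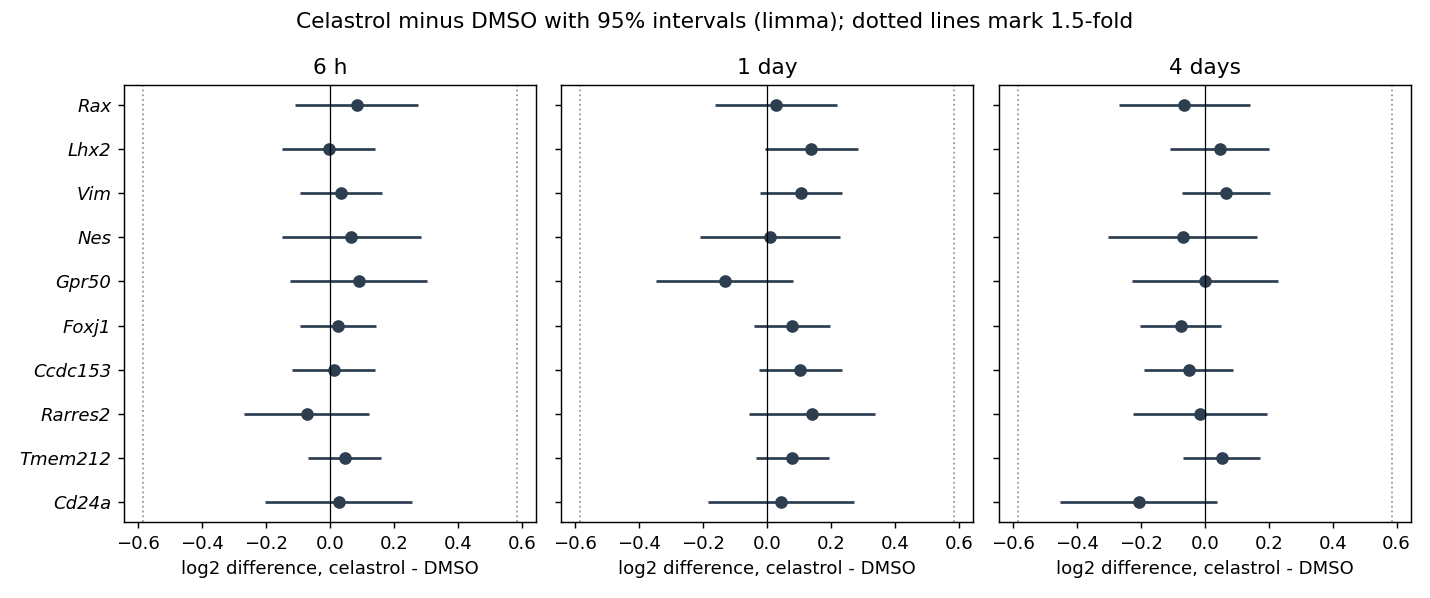
Differences between celastrol and DMSO (x axis, log2) for the 10 marker genes (y axis) at 6 h, 1 day and 4 days, with points for the estimates and lines for 95% intervals from limma. All 30 intervals include 0 and lie inside the dotted lines at 1.5-fold.

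The effect of celastrol did not pass for a difference between times either. No marker gene was called for 1 day minus 6 h, where 0.00708% of all genes were called, for 4 days minus 6 h (0.0142%) or for 4 days minus 1 day (0.00708%). The largest in size were for Cd24a, at -0.25 ± 0.160 (4 days minus 1 day) and -0.23 ± 0.160 (4 days minus 6 h), both limma estimates with SE. For 4 days minus 6 h, 4 genes were higher and 6 lower. All 10 were lower without the 2 arrays that stood apart, and Cd24a was at -0.36 ± 0.152 (limma, SE; unadjusted p = 0.0289, adjusted p = 0.746). The genes share the same arrays, so they are no independent counts of direction. How many of all genes were lower in that fit was not counted.

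The times were then compared within each treatment, where again no marker gene passed. In DMSO from 6 h to 1 day, Gpr50 differed by 0.34 ± 0.109 (limma, SE), with an unadjusted p of 0.00583 and an adjusted p of 0.204. Ccdc153 differed by -0.12 ± 0.0664 (limma, SE; adjusted p = 0.484). These were the 2 of 10 with separate groups, where 14.4% of all genes had them and 0.0991% passed. Without both arrays that stood apart the Gpr50 difference was 0.34 ± 0.134 (limma, SE; adjusted p = 0.405).

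From 6 h to 4 days in DMSO, Gpr50 differed by 0.27 ± 0.109 (limma, SE; adjusted p = 0.390) and Foxj1 by 0.13 ± 0.0605 (limma, SE; adjusted p = 0.472). Again 2 of 10 had separate groups, where 14.2% of all genes had them and 0.0283% passed. From 1 day to 4 days in DMSO none separated, where 14.5% of all genes did, and 0% passed.

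With celastrol, 3 marker genes had separate groups between 6 h and 4 days, where 21.6% of all genes did and 0.892% passed. Rax differed by -0.24 ± 0.0914 (limma, SE; adjusted p = 0.152), which is the lowest adjusted p of the 130. Cd24a differed by -0.28 ± 0.109 (limma, SE; adjusted p = 0.162) and Vim by 0.14 ± 0.0613 (limma, SE; adjusted p = 0.198). In DMSO the same interval gave -0.09 for Rax, -0.05 for Cd24a and 0.11 for Vim. These DMSO values without the 2 arrays that stood apart were -0.13, 0.08 and 0.18, so that the Cd24a value changed sign and the Vim value exceeded that in celastrol. In that fit 4 marker genes had an unadjusted p under 0.05 in DMSO, and limma called 0. The share of all genes with such a p in that fit was not counted, so the 4 cannot be set against it. With all arrays, the effects did not pass for a difference between treatments, with adjusted p of 0.778, 0.712 and 0.940 by limma.

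Genes of other cell types also differed in the same comparison of celastrol arrays. All 5 tested pituitary genes were lower at 4 days than at 6 h, with a median of -0.28, and their mean was 8.16 to 8.69 on the arrays at 6 h and 7.53 to 8.15 at 4 days. All 8 meningeal fibroblast genes were lower (median -0.19), and all 11 endothelial genes were higher (median 0.07), with none of either past the threshold. The genes of a list share the same arrays, so they are no independent counts of direction. The endothelial mean was 9.27, 9.05 and 8.89 on the arrays at 4 days and 8.94 to 9.02 at 6 h, with overlap. Replicate 1 at 4 days, which read 9.27, also had the highest microglia mean (9.57) and Vim value (12.08) of all 20 arrays. Without it the Vim difference from 6 h to 4 days was 0.09, beside 0.14 with all arrays. The part of pituitary, meningeal, endothelial and microglial cells in the Rax, Cd24a and Vim values was not tested.

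From 6 h to 1 day with celastrol none separated, where 10.2% of all genes did and 0.134% passed. From 1 day to 4 days none separated, where 11.9% did and 0.0425% passed. Rax had the smallest unadjusted p of this last comparison, 0.0221, with a difference of -0.23 ± 0.0914 (limma, SE; adjusted p = 0.348). The labels name no clock hour, so times of day cannot be told apart from time after injection. With injections given per day, the number of injections may also differ between the times, and its part was not tested.

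Other genes known from the same cells were counted beside the 10. Of 16 further tanycyte genes, 15 were tested. At 1 day 10 were higher and 5 lower with celastrol, and the only one that passed was Dio2, which encodes a deiodinase that activates thyroid hormone. In RNA from whole hypothalamus, the cells that the Dio2 value came from were not resolved. Dio2 read 8.08, 8.10 and 8.07 on the DMSO arrays at 1 day and 8.54, 8.52, 8.78 and 8.50 on the celastrol arrays. The difference was 0.50 ± 0.106 (limma, SE; adjusted p = 0.0423).

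The vehicle arrays of that day were lower in Dio2 than every other array. In DMSO the mean was 8.53 ± 0.266 at 6 h, 8.08 ± 0.0136 at 1 day and 8.26 ± 0.0680 at 4 days (SD, n = 3 each). In celastrol it was 8.57 ± 0.0917 at 6 h and 8.58 ± 0.131 at 1 day (SD, n = 4 each). At 4 days it was 8.34 ± 0.237 in celastrol (SD, n = 3). The Dio2 call held under 11 of 30 alternatives and in 4 of 20 fits with 1 array left out. It was lost when any of the 7 arrays of 1 day was left out, and also in most fits without an array of another time. Over the 20 fits the adjusted p by limma went up to 0.185. None of the 15 passed at 6 h or at 4 days. Sox2, a transcription factor of stem and glial cells, was at -0.14 ± 0.0641 at 1 day and -0.21 ± 0.0686 at 4 days (limma, SE; adjusted p = 0.569 and 0.538). Crym, a thyroid hormone binding protein, was at 0.19 ± 0.0703 at 4 days (limma, SE; adjusted p = 0.631).

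Of 34 further genes of ciliated ependymal cells, 27 were tested and 0 passed at any of the 3 times by limma, with 1, 4 and 2 at an unadjusted p under 0.05. Of all genes, 7.55% at 6 h, 8.19% at 1 day and 6.53% at 4 days had such a p. At 1 day 16 were higher and 11 lower, with a median of 0.05 beside 0.01 over all genes. Dynlrb2, a light chain of dynein, was at 0.18 ± 0.0466 (limma, SE; adjusted p = 0.139), and Spef2, a protein of the cilium's central apparatus, at 0.34 ± 0.0997 (limma, SE; adjusted p = 0.208). At 4 days 22 were higher and 5 lower, with a median of 0.05 beside 0.01 over all genes. Of the 5 ependymal marker genes, 1 was higher and 4 lower at that time. Genes in both sets were read on the same arrays, so these are no independent counts of direction.

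Of 110 tested genes in 12 lists of other cell types and brain regions, 0 passed at 6 h, 3 at 1 day and 1 at 4 days, all lower with celastrol, where 0%, 0.425% and 0.0637% of all genes passed. Sox9, a factor of astrocytes that the ventricular lining also holds, was lower by 0.24 at 1 day (limma, SE 0.0515, adjusted p = 0.0478). This call was kept in 5 of 20 fits with 1 array left out. Cldn5 of endothelium was lower by 0.61 at 1 day (limma, SE 0.103, adjusted p = 0.00857), kept in 19 of 20. Gjc3 of oligodendrocytes was lower by 0.30 at 1 day (limma, SE 0.0554, adjusted p = 0.0192), kept in 15 of 20. At 4 days it was lower by 0.33 (limma, SE 0.0592, adjusted p = 0.0413), kept in 5 of 20. Leaving out an array of another time changes only the pooled spread and not the difference, so these counts include fits with the same difference.

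**Figure D3:**
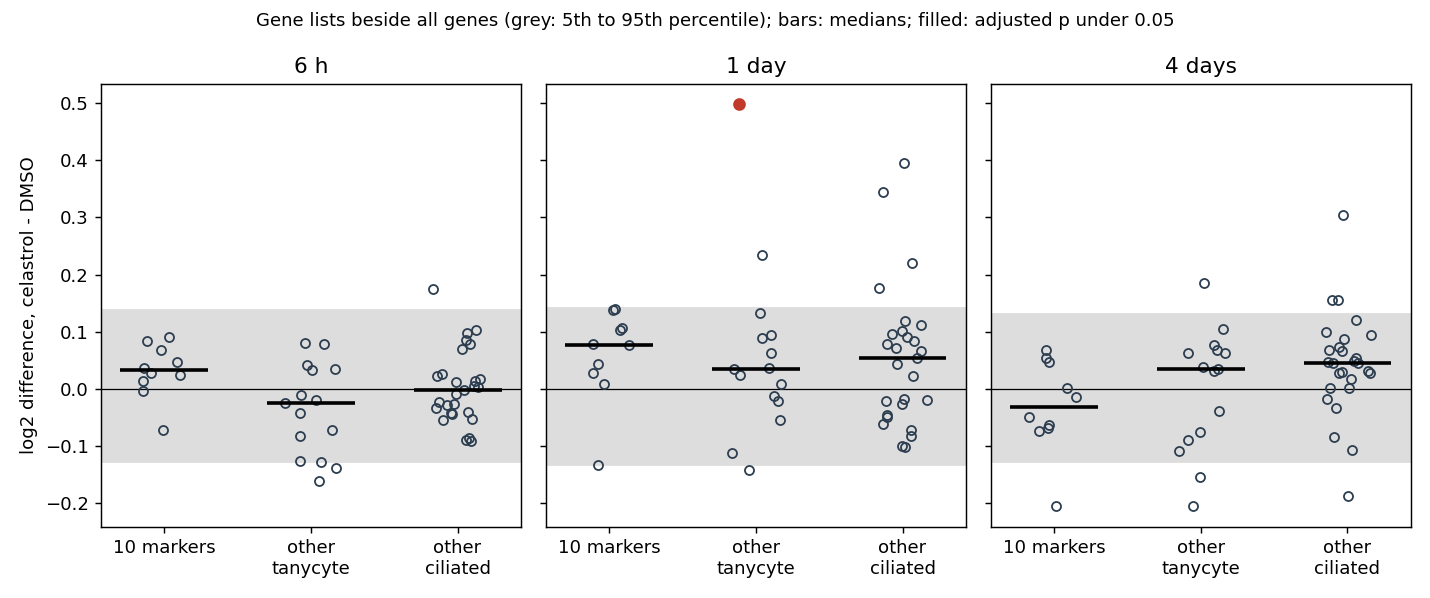
Differences between celastrol and DMSO (y axis, log2) at the 3 times, with 1 point per tested gene of the 10 marker genes, the 15 other tanycyte genes and the 27 other ciliated ependymal genes. Black bars are medians, the grey band is the 5th to 95th percentile of all genes, and the filled point at 1 day is Dio2, the only plotted gene that passed.

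Correlations from array to array between genes that mark the same cells were mostly low. Each array's deviation from its group mean was taken, and the 45 pairs of marker genes were correlated over the 20 arrays. The median Pearson r was 0.255, and 30 pairs were positive. Pairs of genes outside the 10 were not correlated, so these values have no background of other genes. Within the tanycyte genes the median was 0.309 (10 pairs), within the ependymal genes 0.187 (10 pairs) and between them 0.202 (25 pairs). Without the 2 arrays that stood apart these medians were 0.198, 0.151 and 0.198.

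One pair of the 45 passed by both measures, and the share among pairs of other genes was not counted. Rarres2 and Cd24a had r = 0.709 and rho = 0.731, with permutation p of 0.000410 and 0.000350 and adjusted p over the 45 pairs of 0.00922 and 0.0157. Without the 2 arrays farthest in Rarres2, r was 0.606, and without the 2 that stood apart it was 0.617. Vim and Rarres2 had the highest r, 0.724 (permutation, adjusted p = 0.00922), but a rho of 0.444 (permutation, adjusted p = 0.214). That relation rested in part on the 2 arrays farthest in Vim, without which r was 0.490. On the values themselves, with group means left in, the single pair past the threshold by both measures was Rarres2 and Tmem212, with r = 0.626 and rho = 0.725 (permutation, adjusted p = 0.0397 and 0.0211).

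The cilium genes did not form a block. Foxj1 and Ccdc153 had r = 0.135, Foxj1 and Tmem212 r = 0.238, and Ccdc153 and Tmem212, whose promoters are printed above, r = -0.109. Across the classes, Rax and Ccdc153 had r = 0.575 and rho = 0.606, which did not pass (permutation, adjusted p = 0.0744 and 0.0775).

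**Figure D4:**
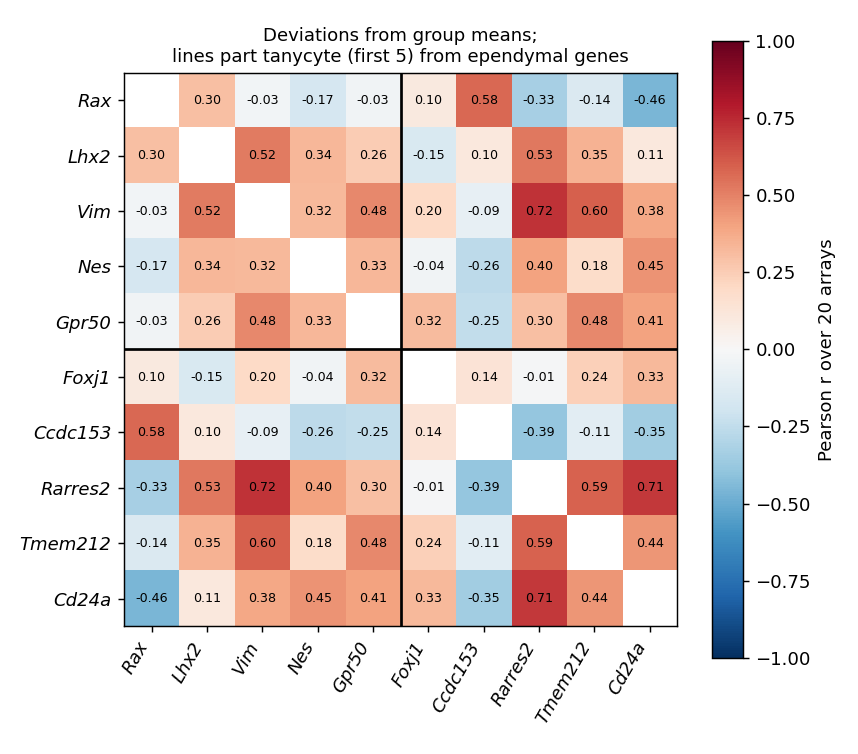
Pearson r between marker genes (rows and columns) over the deviations of 20 arrays from their group means, from blue (negative) to red (positive). The first 5 genes are of tanycytes and the last 5 of ependymal cells, parted by black lines; the highest value, 0.72, joins Vim and Rarres2 across the classes.

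The first component of the residuals, which holds 25.0% of their variance over all tested genes, moved with 5 of the 10 marker genes by both r and rho after adjustment over the 10. Among all tested genes 28.9% had an r at least as far from 0 as the smallest of these 5, so following the component is common on these arrays. Nes (r = 0.746), Cd24a (r = 0.738) and Rarres2 (r = 0.705) were higher on arrays with high scores. Rax (r = -0.601) and Ccdc153 (r = -0.548) were lower there. Their adjusted permutation p for r were 0.000700, 0.000700, 0.00147, 0.0125 and 0.0252. Without the 2 arrays that stood apart, which were also the 2 farthest in score, r was 0.579, 0.705, 0.625, -0.510 and -0.457. What the component stands for, and its part in the correlations between these genes, was not tested.

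The genes most like each marker gene were found by Pearson r over the same deviations, among all tested genes outside the 10. For 12 targets, the 10 genes and the mean of each class, the 3 nearest named genes had r from 0.749 to 0.933. They were picked as the highest among 14119 genes over 20 arrays, so a high r comes with the choice. The best r of other genes was not computed, and a shared regulation was not tested. Nearest were Ccdc12 to Rax (0.889), Dynll1 to Lhx2 (0.810), Lyz2 to Vim (0.920), Dagla to Nes (0.857) and Cd33 to Gpr50 (0.800). For the ependymal genes they were Pnn to Foxj1 (0.803), Zbtb9 to Ccdc153 (0.839), Gm2a to Rarres2 (0.933), Dbx2 to Tmem212 (0.869) and Stxbp4 to Cd24a (0.899). The genes nearest the class means were Gtf2ird1 for tanycytes (0.894) and Gm2a for ependymal cells (0.833).

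These 36 places were held by 33 different genes, of which none belonged to the further tanycyte or ciliated ependymal lists. One was in another list, namely Cdh5 of the endothelial list, the third nearest to Vim (r = 0.831). Among 14119 genes ranked for likeness, the best placed gene of those lists was Zmynd10, a cilium assembly gene, at rank 4 for Vim (r = 0.823). For Foxj1 it was Dnaic2, a dynein intermediate chain, at rank 83 (r = 0.578). For Gpr50 it was Mest at rank 27 (r = 0.688), and for Lhx2 it was Scn7a, a sodium channel, at rank 38 (r = 0.681). For Rax the best placed was Col23a1 at rank 1155 (r = 0.451). Each is the best placed of all genes in those lists, so a high rank comes with the choice. The best rank of as many other genes was not computed.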

How the data were processed

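Total RNA of hypothalamus was measured on 20 arrays, and 23492 probe sets were analysed. The authors deposited log2 intensities, made with RMA per the submitters' processing notes. RMA removes background, gives all arrays 1 distribution by quantile normalization and sums probes into probe sets. Its version is not given in the sources used here. RMA assumes like distributions on all arrays, so a shift of the whole tissue would be removed. Only the 20228 probe sets with exactly 1 symbol in the platform annotation entered, and 1399 with more and 1865 without one stayed out. The brightest probe set per gene was kept, and genes below the 25th percentile of mean intensity (7.04) were left out.

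Groups came from the labels. Differences were tested two-sided with limma 3.58.1 in R 4.3.3, in 1 model with a mean for each of 6 groups, eBayes and Benjamini-Hochberg adjustment over 14129 genes. The spread was pooled over the groups (residual degrees of freedom 14, prior 4.92). The procedure was run on simulated data with independent normal noise for each gene. The genes here share a residual component that the simulated data lack, so that run cannot show the error rate on these arrays. Correlations were tested with 100000 permutations of the arrays in numpy 2.4.6 and scipy 1.17.1. These treat deviations from 6 group means as exchangeable, which is an approximation. Arrays are labelled biological replicates, and if they did not come from separate animals the p-values measure only the spread between arrays. Precision is set by how many arrays there are. The labels name no batch.

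Members and lists were chosen with earlier results of these data known. All 10 members were named. Of other lists the rule names genes past the threshold and the 2 with the smallest p per celastrol comparison, and for likeness the 3 nearest genes. Of the 12 lists of other cell types and regions only genes past the threshold at a time are named. Predicted genes were counted, not named. Alternatives were the probe set rule, the filter, scaling, array weights, the variance prior, the groups in the fit, the replicate block, the 2 arrays that stood apart and each array left out. Same-numbered arrays had correlations of their deviations from -0.356 to 0.518 (median 0.0102), so the numbers were not taken to pair them.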

Additional observations from a re-analysis of the deposited data

How the results depend on the processing

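The 10 marker genes were tested again under 30 alternatives, 20 of which left out 1 array each. In all 389 resulting counts, limma called 0 of them, as before. The probe set rule could not change their values, since each had 1 probe set. Of 40 celastrol differences (the 3 times and the average), 19 kept their sign under every alternative run, the values ran from -0.26 to 0.20, and the lowest adjusted p was 0.153 (Lhx2 at 1 day). With 1 array left out, Cd24a at 4 days ran from -0.26 to -0.13 and Foxj1 at 4 days from -0.10 to -0.05. Vim with celastrol (4 days against 6 h) ran from 0.09 to 0.18 and Foxj1 in DMSO from 0.07 to 0.17. The lowest adjusted p for a difference between times was 0.0630 (Cd24a with celastrol, 4 days against 6 h). Rax and Nes had no value under the filter at the 40th percentile, and the average had none with only the groups compared.

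Dio2 at 1 day ran from 0.43 to 0.53 with adjusted p from 0.0131 to 0.185. Counts over all genes moved more: the 60 called at 1 day became 18 to 85 with 1 array left out and 40 to 196 otherwise, and the 126 called with celastrol between 6 h and 4 days became 1 to 291 and 11 to 656. The replicate number as a block gave 70 and 281, and 0 marker genes in every comparison. No shared animal, batch or day is named for a number. Both arrays that stood apart are numbered 3, and a factor shared under a number was not tested. The signal limits Nes and Rax most, which lay 0.0148 and 0.411 above the filter.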
